A study of Mus musculus and Homo sapiens with 10 samples.

Results

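The class I olfactory receptors are the odorant receptors most like those of fish, and in the mouse nearly all of them are encoded side by side in a single cluster on chromosome 7. The 126 genes described here are the protein-coding genes with a symbol of Olfr plus digits in the 3 Mb of chromosome 7 that start at position 102400001 (mm10), out of 21523 protein-coding genes on chromosomes 1 to 19 and X and of 1105 Olfr genes among them. They were chosen by name and position and not by their values, though with earlier results of these data known. The first was Olfr543 (chr7:102476773-102477902) and the last Olfr692 (chr7:105368328-105369317), a span of 2.89 Mb with 43.6 receptor genes per Mb.

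Lamina-associated domains, or LADs, are stretches of chromosome that lie against the nuclear lamina, the protein mesh under the nuclear envelope, and they are poor in active genes in most cells studied. Each olfactory neuron expresses a single receptor allele and keeps the other receptor genes silent, and many class I genes depend there on a shared long-range enhancer called the J element. In cells outside the nose nearly all receptor genes are silent, and receptor clusters are commonly found at the lamina.

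The study read LADs by DamID, in which a chromatin protein is fused to the bacterial methylase Dam so that GATC sites near it gain an adenine mark. The 10 samples fell into 8 groups, of which 7 samples were N2A cells, a mouse neuroblastoma line, and 3 were HEK293T cells, a human line not used here. The N2A groups were LaminB1-Dam read by Nanopore (1 sample), a sample labelled 10% LaminB1-Dam read by Nanopore (1), LaminB1-Dam read by Illumina (2), Dam alone read by each method (1 each) and wild type (1). Per the labels Dam expression was induced with 2 µg/mL doxycycline, and no dose is given for the wild type sample. What 10% refers to is not given in the labels. The values used were 1 consensus list of LADs per method, with 1174 Nanopore and 1149 Illumina LADs on chromosomes 1 to 19 and X. The lists hold no per-sample values and no scores, so sequencing depth was unknown, no spread between replicates could be computed and no difference below was tested. N2A cells are not olfactory neurons, and the lists say nothing of expression.

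The label of the cluster was checked against the annotation, which gives many receptors a second name with a MOR family number; families MOR1 to MOR42 are class I and those from MOR101 are class II. Of the 126 genes, 122 carried a class I family name and 4 carried none in that form: Olfr596, Olfr652, Olfr681 and Olfr687. One of the 122, Olfr605, carried a class II name as well. Among the other 979 Olfr genes, 958 carried a class II name and 3 a class I name.

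The sequences around the starts of the genes on either side of 4 LAD borders are shown first, since these genes mark where the lists begin, stop and differ. Each runs 5′ to 3′ from 250 bases before to 50 bases after the annotated start, from RefSeq (GRCm38.p6), with the GATC sites that Dam marks in capitals. Olfr545 (chr7:102494724-102495023, minus strand) was the last gene before the Nanopore LAD and Olfr547 (chr7:102534499-102534798, plus strand) the first inside it. Olfr550 (chr7:102578219-102578518, plus strand) was the last before a small Illumina LAD and Olfr551 (chr7:102588770-102589069, minus strand) the first inside it. Olfr555 (chr7:102658573-102658872, plus strand) was the last in that LAD and Olfr556 (chr7:102669651-102669950, plus strand) the first beyond it. Olfr572 (chr7:102927380-102927679, plus strand) was the last before the large Illumina LAD and Olfr574 (chr7:102948217-102948516, plus strand) the first inside it.
Olfr545: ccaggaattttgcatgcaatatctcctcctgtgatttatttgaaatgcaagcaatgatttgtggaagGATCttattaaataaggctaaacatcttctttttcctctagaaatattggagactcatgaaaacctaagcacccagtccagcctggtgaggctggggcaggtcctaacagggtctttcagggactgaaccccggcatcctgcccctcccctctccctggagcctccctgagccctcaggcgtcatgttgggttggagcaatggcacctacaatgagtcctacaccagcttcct
Olfr547: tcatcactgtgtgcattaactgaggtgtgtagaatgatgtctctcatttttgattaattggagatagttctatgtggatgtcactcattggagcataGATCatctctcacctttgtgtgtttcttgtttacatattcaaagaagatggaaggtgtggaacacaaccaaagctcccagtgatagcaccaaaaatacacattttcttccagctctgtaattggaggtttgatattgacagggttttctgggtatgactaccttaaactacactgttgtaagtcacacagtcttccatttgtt
Olfr550: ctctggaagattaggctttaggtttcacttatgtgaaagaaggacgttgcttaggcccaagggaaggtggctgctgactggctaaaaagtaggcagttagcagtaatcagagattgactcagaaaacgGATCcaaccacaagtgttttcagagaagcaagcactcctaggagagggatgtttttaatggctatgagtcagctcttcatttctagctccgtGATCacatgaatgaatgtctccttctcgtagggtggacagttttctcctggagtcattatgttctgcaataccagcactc
Olfr551: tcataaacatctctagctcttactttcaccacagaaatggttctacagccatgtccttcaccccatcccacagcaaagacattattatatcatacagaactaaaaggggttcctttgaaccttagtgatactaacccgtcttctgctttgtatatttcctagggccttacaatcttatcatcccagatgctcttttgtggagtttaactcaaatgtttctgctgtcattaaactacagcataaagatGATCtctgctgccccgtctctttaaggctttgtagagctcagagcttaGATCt
Olfr555: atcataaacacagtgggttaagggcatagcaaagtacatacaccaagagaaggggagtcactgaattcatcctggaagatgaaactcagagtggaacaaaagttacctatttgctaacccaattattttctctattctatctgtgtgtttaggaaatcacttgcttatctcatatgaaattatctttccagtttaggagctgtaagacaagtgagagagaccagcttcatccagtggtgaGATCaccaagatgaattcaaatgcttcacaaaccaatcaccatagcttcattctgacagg
Olfr556: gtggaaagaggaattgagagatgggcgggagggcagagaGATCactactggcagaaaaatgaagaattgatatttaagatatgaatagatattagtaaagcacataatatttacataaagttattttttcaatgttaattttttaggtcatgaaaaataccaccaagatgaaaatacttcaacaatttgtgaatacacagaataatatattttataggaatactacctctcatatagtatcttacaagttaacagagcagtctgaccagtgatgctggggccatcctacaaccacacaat
Olfr572: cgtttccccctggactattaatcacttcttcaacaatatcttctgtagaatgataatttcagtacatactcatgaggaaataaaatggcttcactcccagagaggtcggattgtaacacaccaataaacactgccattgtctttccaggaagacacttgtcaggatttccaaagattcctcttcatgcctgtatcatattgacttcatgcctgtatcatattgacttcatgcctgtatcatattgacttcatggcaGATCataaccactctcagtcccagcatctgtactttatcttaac
Olfr574: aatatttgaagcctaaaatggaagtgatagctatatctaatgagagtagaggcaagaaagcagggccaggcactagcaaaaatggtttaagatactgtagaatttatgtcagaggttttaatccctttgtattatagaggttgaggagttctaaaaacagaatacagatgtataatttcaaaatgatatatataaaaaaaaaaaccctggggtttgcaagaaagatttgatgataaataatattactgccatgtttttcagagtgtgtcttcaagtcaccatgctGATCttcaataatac

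Each of these 8 windows held 1 or 2 GATC sites. Over all windows at hand, a site was present in 58.7% of class I, 48.7% of other Olfr and 46.3% of protein-coding windows. Whether GATC content bears on where the borders fall was not tested. Olfr550 and Olfr551 had 2 each and the other 6 had 1 each. The Olfr550 window lies within the annotated gene, whose body begins further upstream.

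Nearly the whole cluster lay in LADs. By midpoint, 123 of 126 genes (97.6%) were in a Nanopore LAD and all but 21 of 126 (83.3%) in an Illumina LAD, against 28.9% and 25.4% of all protein-coding genes. Every gene in an Illumina LAD was also in a Nanopore LAD, a share of 83.3% in both lists against 24.7% of all protein-coding genes. The 21 genes outside Illumina LADs comprised 18 in the Nanopore LAD only and 3 in neither list, and none was in the Illumina list only. Of all 21523 protein-coding genes, 899 were in the Nanopore list only, 145 in the Illumina list only and 15155 in neither. Genes in the Illumina list only were thus rare in the whole set too. No class I gene straddled a border: each lay wholly inside or wholly outside with either list. Of all 21523 protein-coding genes, 5769 lay wholly inside and 14972 wholly outside by Nanopore, and 5054 and 15790 by Illumina. Genes that straddled a border were thus few in the whole set too. Neighbouring genes share a LAD, so these counts reflect few domains and not 126 separate observations.

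**Figure D1:**
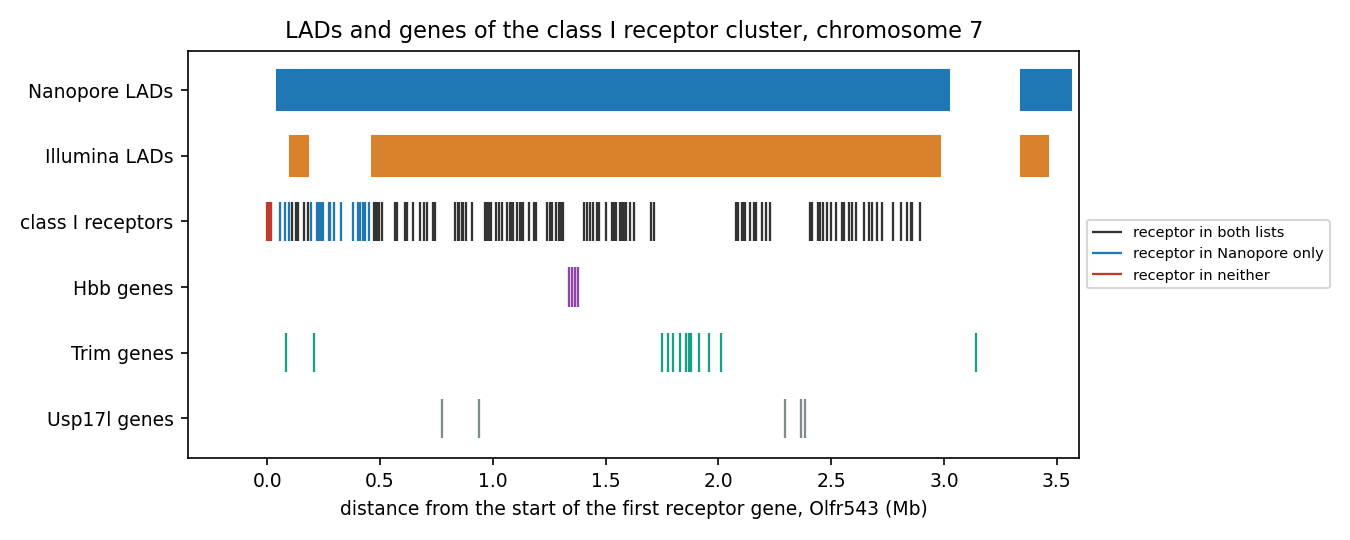
LADs of each list (bars) and genes (ticks at midpoints) of the class I cluster, by distance in Mb from the start of Olfr543; receptor ticks are coloured by the lists that hold them. A single Nanopore LAD spans all but the first 3 receptors, and the Illumina list has a small LAD, a gap and a large LAD over the same stretch; the bars at the right are the next LADs, and the Trim tick at the right is Trim3, outside both lists.

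A single Nanopore LAD held all 123 genes. It ran over chr7:102520001-105500000, 2.98 Mb against a median of 690 kb for the Nanopore list, and ranked 126th of 1174 in width. The Illumina list held its receptors in 2 LADs, a small one of 80 kb (chr7:102580001-102660000) with 5 of them and a large one of 2.52 Mb (chr7:102940001-105460000) with the other 100. Between them lay a gap of 280 kb that the Nanopore LAD covered. Over the window of 3 Mb, Nanopore LADs covered 96.0% and Illumina LADs 84.7%, with 2.54 Mb in both, 340 kb in the Nanopore list only and none in the Illumina list only. The Jaccard index, which divides the bases common to the lists by those in at least 1 of them, was 0.882 in the window and 0.892 over chromosomes 1 to 19 and X.

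The LAD of the class I receptors was crowded with genes. The Nanopore LAD held 155 protein-coding genes, 52.01 per Mb, and the large Illumina LAD 129, 51.2 per Mb. Among LADs of at least 1 Mb both were the densest of their lists, of 457 Nanopore LADs with a median of 2.34 genes per Mb and of 412 Illumina LADs with a median of 1.92. By number of genes each ranked second, after a LAD on chromosome 2 that held 225 genes by Nanopore and 223 by Illumina, of which 222 and 220 were Olfr genes. That LAD, at 43.6 and 44.1 genes per Mb, was also the next densest in both lists. The class I receptors made up most of the genes in their LADs, so this density is in large part that of the cluster itself.

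**Figure D2:**
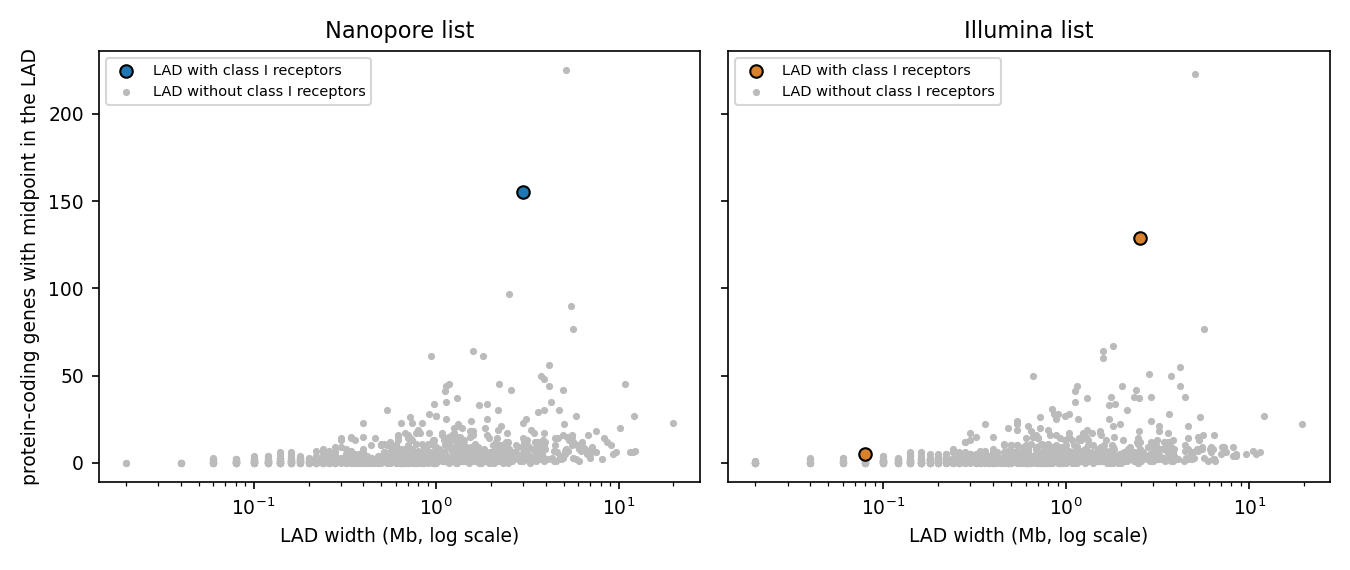
Protein-coding genes per LAD (vertical axis, count of midpoints) against LAD width in Mb on a log scale, for the Nanopore list (left) and the Illumina list (right); each point is a LAD and the large points are those that hold class I receptors. The Nanopore LAD with 155 genes and the Illumina LAD with 129 genes each stand second in gene number, while the small Illumina LAD of 80 kb holds 5.

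Both lists began their LADs inside the cluster at its low-coordinate end and ended them beyond its last gene. The 3 genes in neither list were Olfr543, Olfr544 and Olfr545, which together are the whole MOR42 family in the cluster. Olfr544 is known as a receptor for azelaic acid, a dicarboxylic acid, and is also expressed outside the nose. With distances to the nearest LAD border counted from the gene midpoint, positive inside and negative outside, Olfr543 was at -42.7 kb in the Nanopore list and -103 kb in the Illumina list. Olfr544 was at -33.8 and -93.8 kb, and Olfr545 at -25.7 and -85.7 kb. Borders in both lists fall on a grid of 20 kb, so all 3 lay less than 3 grid steps from the Nanopore border. The border itself fell in the 39.98 kb between Olfr545 and Olfr547.

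On the outer side of that border stood genes that many cells use. Rrm1, the large subunit of ribonucleotide reductase, lay at -64.3 kb by Nanopore and -124 kb by Illumina, and Stim1, a calcium sensor of the endoplasmic reticulum, at -171 and -231 kb. The stretch without LADs that ended at the first LAD of the cluster was 6400 kb wide in the Nanopore list and held 96 protein-coding genes, the first 3 receptors among them. In the Illumina list it was 6480 kb wide and held 100 genes, among them the first 6 receptors and Trim21. These gaps ranked 15th of 1154 and 22nd of 1129 in width, against medians of 440 and 420 kb.

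The next 3 receptors, Olfr547, Olfr549 and Olfr550, lay inside the Nanopore LAD and just outside the Illumina list. Olfr547 was at 15.2 kb by Nanopore and -44.8 kb by Illumina, and Olfr549, of the same MOR31 family, at 34.8 and -25.2 kb. Olfr550, the only MOR16 gene here, was at 55.5 kb by Nanopore and -4.45 kb by Illumina, the smallest distance outside among the members in that list. The borders differed here by 60 kb, 3 grid steps. Trim21, which encodes a cytosolic antibody receptor and lies between Olfr549 and Olfr550, shared their state, at 41.7 and -18.3 kb.

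Olfr551, Olfr552, Olfr553, Olfr554 and Olfr555 formed the block in both lists that the small Illumina LAD held. Their Nanopore distances ran from 68.3 kb at Olfr551 to 139 kb at Olfr555. In the Illumina list they lay between 0.704 kb at Olfr555 and 34.5 kb at Olfr553. Olfr555, a MOR10 gene, was thus under 1 kb from leaving the Illumina LAD, much less than a grid step, and its state there rests on where that border was drawn. It was not alone in this: 8 class I genes lay within 1 grid step of an Illumina border, and 1 within a step of a Nanopore border.

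The gap in the Illumina list held 15 receptors, Olfr556 to Olfr572, and the gene Trim68. By Nanopore these receptors lay inside, from 150.4 to 408 kb with a median of 255 kb. By Illumina all 15 lay outside, from -10.4 kb at Olfr556 to -136 kb at Olfr564 with a median of -53.9 kb. The gap held the whole MOR18 family, Olfr557, Olfr558 and Olfr78, and both MOR11 genes, Olfr33 and Olfr559. Olfr78 is known as a receptor for short-chain fatty acids that is also expressed outside the nose, in the kidney and carotid body among other tissues; it lay at 230.1 kb by Nanopore and -90.1 kb by Illumina. Olfr558, its close relative, likewise found outside the nose, lay at 187 and -47.2 kb. Expression of neither gene was measured in these lists.

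**Figure D3:**
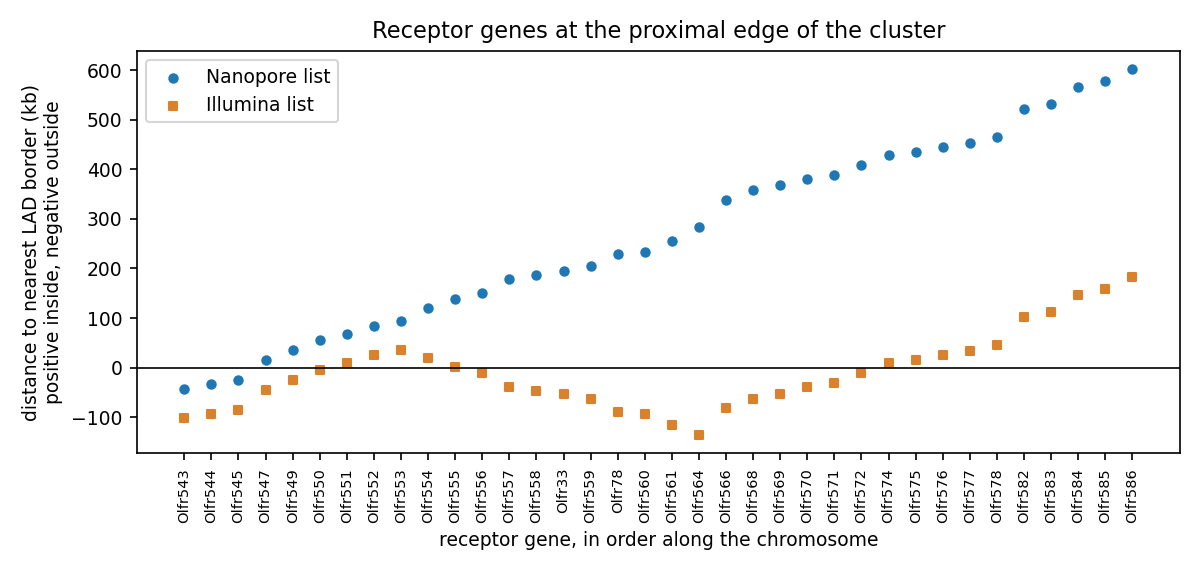
Distance of the first 36 receptor genes from the nearest LAD border in kb (vertical axis, positive inside and negative outside), in order along the chromosome, for the Nanopore list (circles) and the Illumina list (squares). Nanopore values climb without a break after Olfr545, while Illumina values cross the border 3 times and reach -136 kb at Olfr564.

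Such gaps occurred elsewhere in the Illumina list too. Of its 1129 gaps between neighbouring LADs, 158 lay wholly inside a Nanopore LAD, with a median width of 120 kb and a median of 1 gene. The gap in the class I cluster ranked 12th of these in width, tied with 1 other, and held the most protein-coding genes, 16, against 10 in the next. All of the 16 but Trim68 were class I receptors, so this count is in large part that of the dense cluster itself. In the other direction 13 of 1154 Nanopore gaps lay wholly inside an Illumina LAD, none of them in this cluster.

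Split by family, the 122 receptors with a class I family name fell into 41 MOR families. In the Nanopore list 40 families lay wholly inside and 1, MOR42, wholly outside, with none divided. In the Illumina list 30 families lay wholly inside, 6 wholly outside and 5 were divided. MOR42, MOR18, MOR11 and the single genes of MOR16 (Olfr550), MOR21 (Olfr571) and MOR41 (Olfr556) made up the 6. MOR14 had 8 of 8 genes inside by Nanopore and 3 by Illumina, MOR31 11 of 11 and 9, MOR8 4 of 4 and 3, MOR30 3 of 3 and 2, and MOR10 2 of 2 and 1. The large families MOR32 (11 genes), MOR40 (8) and MOR34 (7) lay wholly inside with both lists. Genes of a family tend to be neighbours, so a family's state largely follows its place: MOR31, spread over 2802 kb, had its 2 genes outside the Illumina list, Olfr547 and Olfr549, at the low-coordinate end.

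Away from that edge the receptors lay deep inside. Over the genes inside, Nanopore distances ran from 15.2 to 1488 kb with a median of 700.2 kb, and Illumina distances from 0.704 to 1250 kb with a median of 543 kb. Over all protein-coding genes inside LADs the medians were 290 kb by Nanopore and 260 kb by Illumina. Those genes lay in 986 Nanopore and 938 Illumina LADs, the receptors in 1 and 2. The width of a LAD limits the depth of its genes, so the receptors' medians largely describe these few LADs. The deepest by Nanopore was Olfr639, a MOR12 gene, at 1488 kb against 1072 kb by Illumina, followed by its MOR5 neighbour Olfr638 at 1484 and 1064 kb. The deepest by Illumina were the MOR31 genes Olfr649, at 1250 kb against 1310 kb by Nanopore, and Olfr648, at 1240 kb against 1320 kb. The large Illumina LAD starts 420 kb further in than the Nanopore LAD and ends 40 kb earlier, which moves its midpoint towards the high-coordinate end.

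Every one of the 126 genes was deeper, or less far outside, in the Nanopore list than in the Illumina list, by 40 to 420 kb. These differences follow from the few LAD borders and are no set of separate findings. To within 0.01 kb, 62 genes differed by 420 kb, the offset between the starts of the Nanopore LAD and the large Illumina LAD. Another 35 differed by 40 kb, the offset between the ends of those LADs. A further 9, Olfr543 to Olfr553, differed by 60 kb, the offset between the starts of the Nanopore LAD and the small Illumina LAD. The other 20 had values in between, since their nearest borders in the lists were not such a pair. Genes that differed by 420 kb began with Olfr564, Olfr566, Olfr568, Olfr569 and Olfr570. In the Nanopore list 79 genes (62.7%) were over 500 kb from a border on the inside and in the Illumina list 59 (46.8%), against 9.77% and 7.81% of all protein-coding genes. Most protein-coding genes lay outside LADs. Of those inside, 2102 of 6223 were this deep by Nanopore and 1680 of 5469 by Illumina. The shares were 73.4% and 72.7% of Olfr genes on chromosome 2 and 63.6% and 45.7% on chromosome 9. They were 20.7% and 18.9% of the other Olfr genes of chromosome 7.

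**Figure D4:**
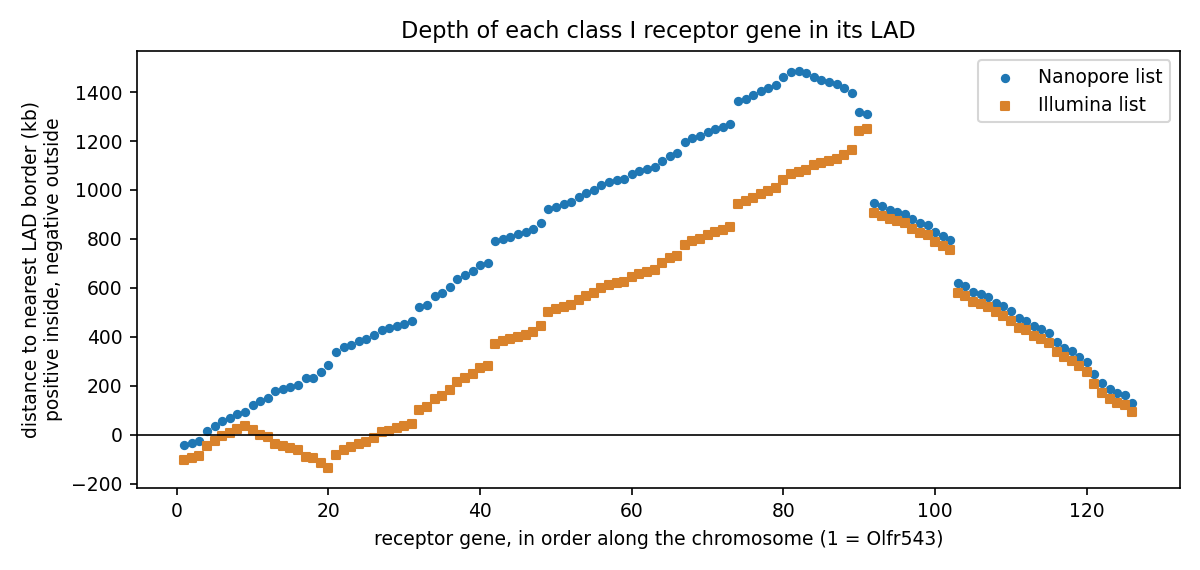
Distance of each of the 126 receptor genes from the nearest LAD border in kb (vertical axis, positive inside and negative outside), in order along the chromosome, for the Nanopore list (circles) and the Illumina list (squares). Values peak at 1488 kb by Nanopore and 1250 kb by Illumina and fall along parallel lines 40 kb apart at the high-coordinate end.

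Genes of other families were embedded among the receptors and mostly shared their LADs. Between the first and last receptor lay 27 other protein-coding genes, of which the Nanopore list held 27 and the Illumina list 25; the exceptions were Trim21 and Trim68. They divided the receptors into 9 uninterrupted runs, the longest with 29 genes, from Olfr557 to Olfr594. The 5 beta-globin genes, which encode the beta chains of haemoglobin in red cells, were in both lists, from 1293 to 1332 kb inside by Nanopore and 873 to 912 kb by Illumina. Olfr69, Olfr68 and Olfr67 lie on one side of them, at 1249 to 1270 kb by Nanopore and 829 to 849.5 kb by Illumina. Olfr66, Olfr64 and Olfr65 lie on the other, at 1362 to 1387 kb and 942 to 967 kb. The depths of the globin genes, between those of the flanking receptors, follow from their place on the chromosome and are no separate result.

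The 12 Trim genes within the cluster, several of which act in antiviral defence, had 12 members in Nanopore and 10 in Illumina LADs. Trim6 lay at 1273 and 1233 kb and Trim30a, which restrains inflammatory signalling, at 1063 and 1023 kb. Trim21 and Trim68 lie among the first receptors, and the other 10 lie with Gm38525 in a block between Olfr649 and Olfr651. Those receptors are 363 kb apart, the widest interval between 2 neighbouring receptors, against a median of 12.4 kb. The 5 Usp17l genes, which encode deubiquitinating enzymes, and the 3 Ubqln genes, which encode ubiquilins, were in both lists without exception.

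At the high-coordinate end the LADs ran past the receptors. Olfr692, the last, was 131 kb inside by Nanopore and 91.2 kb by Illumina. Fam160a2 followed at 114 and 74.3 kb inside, and Gm5901 at 123 and 83.3 kb. Beyond them lay Cnga4, a subunit of the cation channel that opens in olfactory neurons when an odorant is bound, at 95.6 and 55.6 kb. Cckbr, a receptor for the peptides cholecystokinin and gastrin, was at 69.0 and 29.0 kb. Cavin3 lay inside by Nanopore, at 18.6 kb, and outside by Illumina, at -21.4 kb. Smpd1, the acid sphingomyelinase of lysosomes, was outside both, at -56.4 and -96.4 kb.

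Set beside other sets of Olfr genes, the class I genes had about the same Nanopore share and a lower Illumina share, differences that were not tested. Of the 111 other Olfr genes on chromosome 7, 97.3% were in Nanopore and 96.4% in Illumina LADs. The shares were 99.7% and 99.3% of 286 Olfr genes on chromosome 2, 99.2% and 95.3% of 129 on chromosome 9, and 93.1% and 91.5% of all 979 other Olfr genes. In the Nanopore list only were 18 class I genes and 19 of those 979. Median distance inside was 700.2 kb by Nanopore and 543 kb by Illumina for the class I genes, 295 and 287 kb for the other Olfr genes of chromosome 7, 982 and 969 kb on chromosome 2, and 669 and 453 kb on chromosome 9. The class I medians thus lay between those of chromosome 2 and the others of chromosome 7, as did those of chromosome 9. These sets are not single clusters. By Nanopore the class I genes inside lay in 1 LAD, the others of chromosome 7 in 5, those of chromosome 2 in 3 and those of chromosome 9 in 2. Each median therefore rests on few LADs, whose width limits the depth.

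**Figure D5:**
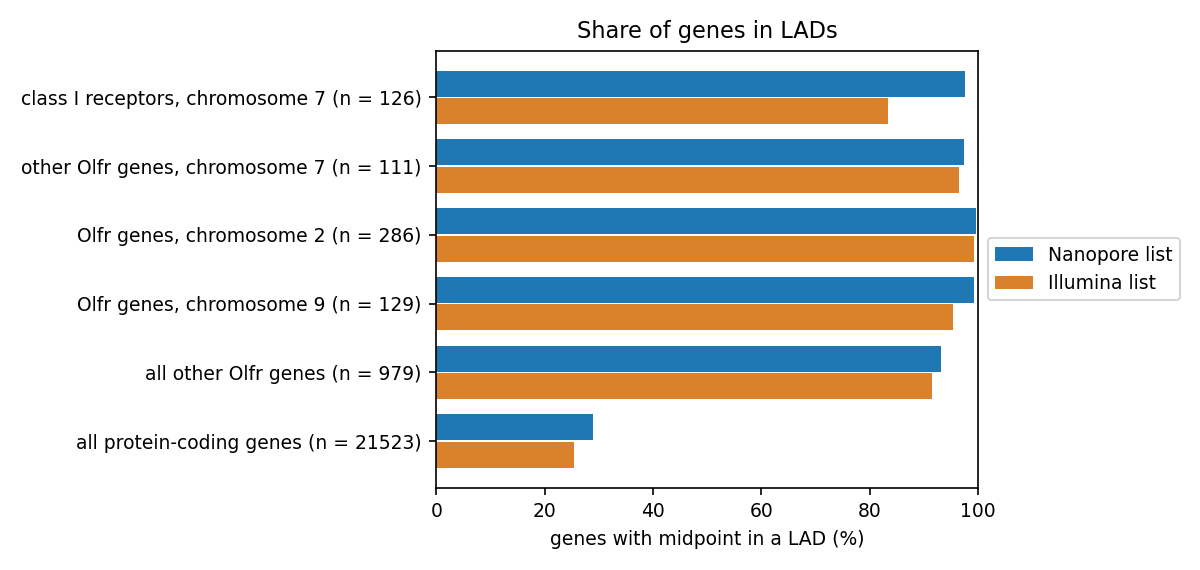
Percent of genes with their midpoint in a LAD (horizontal axis), for the Nanopore list (upper bar) and the Illumina list (lower bar), in the class I receptors, other sets of Olfr genes and all protein-coding genes. The class I bars stand at 97.6% and 83.3%, against 28.9% and 25.4% for all protein-coding genes.

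The class I genes were short and their starts were poor in G and C. Gene length had a median of 957 bases and was under 1200 bases in 109 of 126, close to the length of the single coding exon of a receptor. The longest was Olfr687, at 48745 bases, and the shortest were Olfr624 and Olfr655, both at 927; Olfr560 lies within Olfr78, the only pair that overlaps. RefSeq promoter windows of 300 bases were at hand for 109 genes, 55 on the plus and 54 on the minus strand. In 82 of these the annotated start was the letters ATG, so most windows lie before the start codon and may not hold the true promoter.

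G and C made up 37.6% ± 5.49 of the class I windows (SD over 109 genes), 35.9% ± 6.31 over 831 other Olfr genes and 56.1% ± 11.6 over 17274 protein-coding genes. The class I windows held a median of 1 CG, against 14 for protein-coding genes. A GATC site was present in 64 of 109 (58.7%), against 48.7% of the windows of other Olfr genes and 46.3% of those of protein-coding genes. Among the class I genes it was present in 52 of 91 in both lists, 9 of 15 in the Nanopore list only and 3 of 3 in neither. Windows with a GATC site thus occurred among the genes of all 3 states. GATC content over the gene bodies and the space between them was not tested.

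Motifs of factors known to act in olfactory neurons were searched on both strands, each reading the same on either. TAATTA, a core letter pattern of homeodomain sites, was found in 16 of 109 class I windows (14.7%), against 19.3% of other Olfr windows and 4.61% of protein-coding windows. CCCNNGGG, the core of EBF sites, was found in 3 of 109 (2.75%), against 3.13% and 15.4%. The first is made of A and T and the fixed letters of the second are C and G. Mean G and C content was 37.6% in class I, 35.9% in other Olfr and 56.1% in protein-coding windows. Whether this bears on the motif shares was not tested. These matches are descriptions of letters, not of bound sites.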

How the data were processed

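The authors deposited 3 lists of intervals, of which the 2 lists of mouse LADs were used; their only measure (unit: other) is interval start and end in bases, with no count, score or p-value, and the human CTCF list was not used. Per the submitters' processing notes, the tools were minimap2, SAMtools, deepTools and bedtools, on builds mm10 and hg38. Not given in the sources used here are the caller, its thresholds, which samples entered each list, and how reads from near-identical receptor copies were placed. Per the labels' protocols, Nanopore libraries were ligated from DpnI-cut DNA, while Illumina libraries followed a published procedure; whether this bears on where the lists differ was not tested. All borders lay on a 20 kb grid (100% on chromosomes 1 to 19 and X), so a distance is known to about a grid step.

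Genes came from RefSeq (GRCm38.p6, the assembly behind mm10), leaving out genes listed below 3 Mb. A gene was placed by its midpoint; percent of the gene in LADs and signed distance to the nearest border were also computed. Alternatives changed the placement, the LADs and the members. Functions were tested on simulated LADs. The members and lists were chosen with earlier results of these data known. Named genes are those at cluster ends, at borders, in 1 list or neither, the 5 nearest a border, deepest and most different between the lists, the longest and shortest, and the non-receptor genes between; genes beyond the ends, MOR family examples and Olfr605 were chosen after their values were seen. Scripts ran under Python 3.11.15 with pandas 2.3.3, numpy 2.4.6, scipy 1.17.1 and matplotlib 3.10.9.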

Additional observations from a re-analysis of the deposited data

How the results depend on the processing

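The share of class I genes in Nanopore LADs ran from 96.8 to 98.1% over 9 alternatives, and the shares in Illumina LADs and in both lists from 79.4 to 85.7%. Any overlap, at least 50% of the gene and the whole gene had to give the same counts as the midpoint, since no gene straddled a border. Merging LADs 100 kb or less apart could change nothing either, since the gaps at the cluster are wider. The lowest Illumina share, 100 of 126, came both from leaving out LADs under 100 kb, which removes the small LAD of 80 kb, and from shortening LADs by 20 kb, which removes Olfr551, Olfr554, Olfr555, Olfr574 and Olfr575. Over all 126 genes the median distance to a border was 679.7 kb by Nanopore and 439.5 kb by Illumina. By transcription start site, known for 109 genes, the Nanopore median was 796 kb, and with 32 Olfr pseudogenes added 649.7 kb; fewer or more genes entered. The Nanopore share of the window was 98.5% from first to last receptor, against 96.0%, since the window reaches beyond the cluster. The Illumina median stayed within 420 to 460 kb and the Jaccard index within 0.854 to 0.882. No list is given per sample, so leaving out a replicate could not be run. Depth is unknown, and a border's error beyond the grid cannot be given.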

Other observations

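The window also holds 32 Olfr pseudogenes, receptor copies that no longer encode a full protein. By midpoint 32 of them lay in the Nanopore LAD and 26 in Illumina LADs. The shares were 97.6% and 83.3% of the 126 class I genes and 28.9% and 25.4% of all protein-coding genes. Beyond the class I cluster, up to the end of the next 2 LADs on chromosome 7 at 107200000, 23 further Olfr genes from Olfr693 to Olfr716 lay in LADs of both lists, 23 by Nanopore and 23 by Illumina. Of all 111 other Olfr genes of chromosome 7, 95.5% were in both lists.

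The 3 Olfr genes outside the cluster with a class I family name were also in both lists, as were 91.1% of all 979 other Olfr genes. Olfr503 (chr7:108544527-108545498), a MOR34 gene, was 395 kb inside with either list, and Olfr504 (chr7:108564837-108565793), a MOR40 gene, 375 kb. Olfr1137 on chromosome 2 (87710972 to 87711904) carries a class II name as well and was 2451 kb inside with either list.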
